A study of Mus musculus with 8 samples.

Results

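The 37 genes described here act in homologous recombination, in the Fanconi anaemia pathway or in the DNA damage signalling that goes with them. They were listed by gene symbol, with earlier results of these data known, and each was found once among the 55359 genes listed. RNA sequencing was done on thymocytes from mice aged 5 weeks, 8 samples in all, sorted as CD4 and CD8 double positive cells with absent to intermediate surface TCR beta. Each group had 1 female and 3 males. Replicates 1 to 4, the controls, had the genotype LSL-Sting1-N153S/+. There, a gain-of-function form of the innate immune adaptor STING is silenced by a transcription stop between loxP sites. Replicates 5 to 8 had the genotype LSL-Sting1-N153S;Lck-cre, in which Cre driven by the Lck promoter, active from early T cell progenitors on, can remove that stop. Every sample therefore carried the mutant allele, and no group used here carried Lck-cre without it, so effects of Cre and of the allele cannot be told apart. The labels do not say that each sample was a separate animal, so p-values measure the spread between these samples.

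Homologous recombination repairs a DNA break with the sister chromatid as template, and so works mainly in S phase and G2. The broken ends are first resected to single strands, BRCA1, PALB2 and BRCA2 then prepare these strands to invade the template, and the joined molecules are finally dissolved or cut apart. The Fanconi anaemia proteins sense cross-links between the strands and stalled forks and hand them to this machinery, while ATM and ATR signal the damage to the cell cycle. Thymocytes cut their own receptor genes with the RAG recombinase, but those breaks are mostly sealed by end joining. Double positive cells include large dividing blasts and small resting cells, and many of the genes below are known as genes of the S phase programme.

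Of the 37 genes, 20 were higher in the Lck-cre samples and 0 were lower, at an adjusted p under 0.05 by limma on log2(FPKM + 0.5). FPKM is a count of fragments scaled to gene length and to sequencing depth. Of all 12337 genes tested, 15.4% were called higher and 10.4% lower. Differences between the functional groups named below were not tested. At an unadjusted p under 0.05, 24 members were higher and 0 were lower, against 23.4% and 18% of all genes tested. The members' median log2 change was 0.40, against 0.01 over all genes tested, and it ran from -0.18 for Mus81 to 0.80 for Chek1. The changes were moderate: the called genes rose 1.21-fold to 1.80-fold between group means. The groups did not overlap in 20 members, each higher in Lck-cre, against 17.1% of all tested genes, and with TPM values they did not overlap in 13 that were higher and in Mus81, which was lower (11.4% and 18.1% of all tested genes). In bulk samples, more cells in cycle and more RNA per cell cannot be told apart.

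**Figure D1:**
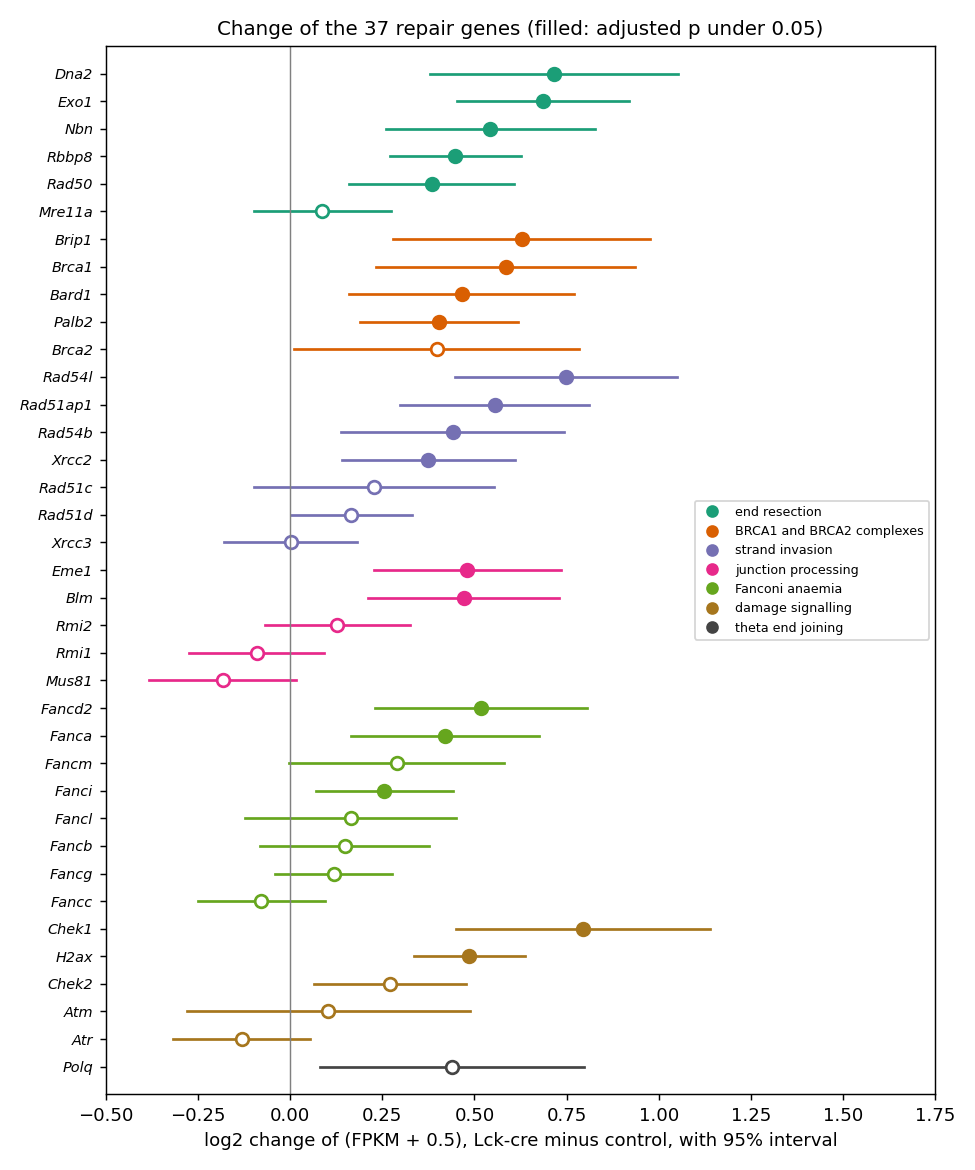
Log2 change of each of the 37 genes between Lck-cre and control samples (points) with its 95% confidence interval by limma (lines), ordered within functional groups shown by colour. Filled points mark the 20 genes called higher, and open points the 17 that were not called, among them Mus81 at -0.18.

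The counts changed with the samples used. Without control replicate 1 or Lck-cre replicate 5, the females, 4 members were called, while 3.48% and 3.33% of all genes tested were called higher. The model held sex, so without 1 female the other adds nothing to the genotype comparison, and 3 samples against 3 remain. An effect of these samples thus cannot be told apart from that of having fewer. Without control replicate 2 the count was 8 (6.82% of all genes tested), without Lck-cre replicate 8 it was 13 (10.5%), and without Lck-cre replicate 6 it was 23 (17.9%). Exo1, H2ax, Rad54l and Rbbp8 were called under each of the 18 alternative settings, and they were the 4 that kept their call without either female. Without control replicate 2 the calls of Bard1, Blm, Brca1, Brip1, Eme1, Fanca, Fancd2, Fanci, Nbn, Rad50, Rad54b and Xrcc2 ended. The least steady calls were those of Fanci (5 of 18 alternatives), Rad54b (6), Bard1 and Xrcc2 (8 each) and Rad50 and Fanca (9 each). TPM values gave 15 members higher and 1 lower, and with them the calls over all genes turned from 1901 higher and 1279 lower to 1300 higher and 2067 lower.

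The libraries gave the following background. FPKM summed to 413835 to 437426 in the controls and 437778 to 457145 in Lck-cre, and read counts are not given, so depth is unknown. Mean coverage per base of the members ran from 4.42 in Fancc to 2506 in H2ax. Coverage per unit of FPKM differed between genes, from 0.49 in Fancc and 1.55 in Rbbp8 to 7.71 in H2ax and Bard1, and the sources used here do not say why, so coverage is no common measure of depth. Sting1 lay at 11.6 to 15.3 FPKM in the controls and 85.4 to 232 in Lck-cre, lowest in replicate 6. Of 36 S phase genes, 36 were called higher and 0 lower by limma, as many as at an unadjusted p under 0.05, with a median log2 change of 0.70. Of 18 mitosis genes, 16 were called higher, with a median of 0.49. Of all genes tested, 15.4% were called higher and 10.4% lower. Pcna, the clamp of the replication fork, rose from 254 ± 43.1 to 399 ± 34.4 FPKM, and the proliferation marker Mki67 lay at 75.2 ± 18.5 and 94.6 ± 20.5 FPKM, not called (SD, n = 4 each, adjusted p = 0.206 by limma). Of 8 genes listed as markers of double positive cells, 3 were lower (Cd4, Rag1 and Rag2) and 1 was higher (Ptcra). The list holds genes not particular to that stage, among them Ptcra. The FPKM of the 8 genes summed to 4348 to 4732 in controls, against 3267 to 4303 in Lck-cre. Markers of B cells summed to 12.4 to 16.9 and 7.85 to 15.5 FPKM, those of thymic epithelium to 3.48 to 5.61 and 3.99 to 5.33, and those of myeloid cells to 2.98 to 3.77 and 4.25 to 6.28, in control and Lck-cre. Among the myeloid markers H2-Aa was called higher, and 4 of the 6 stayed under 1 FPKM in every sample. Erythroid markers reached 0.136 FPKM at most. The 5 markers of fibroblasts and endothelium summed to 43.6 to 52.9 and 50.1 to 57.6 FPKM, with Col1a2 and Pdgfra at 0. In this list 4 of 5 markers, in that of B cells 4 of 5 and in that of thymic epithelium 5 of 6 stayed under 1 FPKM in every sample, so each sum rested mainly on 1 gene. Of the 5 markers of double negative thymocytes, 0 of the 3 tested were called, and they summed to 15.6 to 20.7 and 18.0 to 29.6 FPKM. The part of cell composition in the results below was not tested.

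In each group, the sample that was most often lowest among the called members was also most often lowest among the S phase genes. Median log2(FPKM + 0.5) over the 37 members was 2.85, 3.11, 3.11 and 3.18 in control replicates 1 to 4 and 3.48, 3.28, 3.30 and 3.52 in Lck-cre replicates 5 to 8. The S phase list lay at 4.45, 4.62, 4.78 and 4.84 in the controls and at 5.29, 5.16, 5.35 and 5.63 in Lck-cre. Control replicate 1 was the lowest control in 19 of the 20 called members and in 32 of the 36 S phase genes. Lck-cre replicate 6 was the lowest of its group in 18 of the 20 called members and 36 of the 36 S phase genes, and replicate 8 the highest in 19 and 31. Among the 17 uncalled members, control replicate 1 was lowest in 7, and Lck-cre replicate 6 in 8. The called members were picked by these same values, and the S phase list with earlier results known, so this contrast is no independent support. Within each sample, the members' median stood below that of the S phase genes by a log2 difference between -1.67 and -1.51 in controls and between -2.11 and -1.81 in Lck-cre. The distance between the lists was thus wider in the Lck-cre samples, with no overlap. It restates the larger median log2 change of the S phase list (0.70, against 0.40 for the members). Both lists were chosen with earlier results known, so it is no independent support either.

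**Figure D2:**
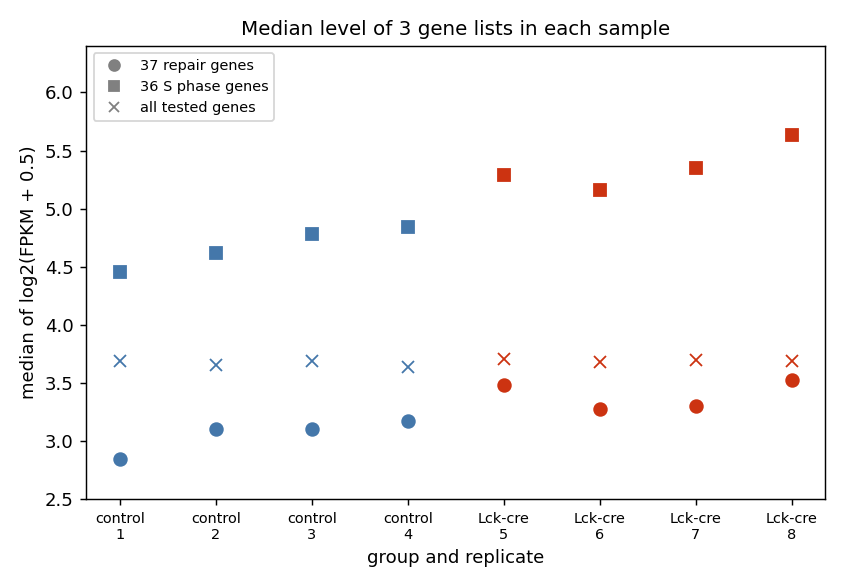
Median of log2(FPKM + 0.5) over the 37 repair genes (circles), 36 S phase genes (squares) and all 12337 tested genes (crosses) in each sample, with controls in blue and Lck-cre in red. The repair genes lie at 2.85 to 3.18 in the controls and 3.28 to 3.52 in Lck-cre, and replicate 6 is the lowest Lck-cre sample in both short lists.

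Since many members moved together, their promoters were searched for words that E2F, NF-Y and cell cycle factors are known to bind. The RefSeq table (GRCm38.p6) gave 250 bases before to 50 after the start for 27 of the 37 genes. Rad51d, Rad54b, Xrcc2, Rmi2, Exo1, Rad50, Nbn, Rbbp8, Fancd2 and H2ax were not matched, so 8 of the 20 called genes were not searched. On both strands, an E2F word (TTTCGCGC, TTTGGCGC or TTTCCCGC) stood in 6 of 27 members (22.2%), against 2.12% of all genes in the table. With TTTGGCGG and GGCGGGAA, added after these promoters had been seen and overlapping some of the others, it was 11 of 27 (40.7%) against 4.51%. The members are all expressed here, while the shares over the table take in all its genes, unmatched for expression or base composition. The contrast is therefore no measure of enrichment. CCAAT, the word of NF-Y, stood in 15 (55.6%, against 41.1%, counting its complement ATTGG), and the cell cycle homology words TTTGAA or TTCGAA in 4 (14.8%, against 21.7%). By response, the 3 E2F words stood in 1 of 12 called and 5 of 15 uncalled members, the wider set in 3 and 8, CCAAT in 7 and 8, and the cell cycle homology words in 2 and 2. These splits were not tested. The following promoters, 5′ to 3′ on the gene's strand with every matched word in capitals, show the range from members called higher (Chek1, Brip1, Bard1) to members not called (Fancg, Rad51c).
Chek1 promoter, chr9:36726609-36726908, strand minus: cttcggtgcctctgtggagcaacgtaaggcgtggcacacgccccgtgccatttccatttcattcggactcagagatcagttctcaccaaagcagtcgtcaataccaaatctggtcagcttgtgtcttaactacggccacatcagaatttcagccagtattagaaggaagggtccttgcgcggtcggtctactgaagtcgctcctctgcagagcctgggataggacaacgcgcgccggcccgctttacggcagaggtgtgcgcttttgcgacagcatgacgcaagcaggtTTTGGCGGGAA
Brip1 promoter, chr11:86201144-86201443, strand minus: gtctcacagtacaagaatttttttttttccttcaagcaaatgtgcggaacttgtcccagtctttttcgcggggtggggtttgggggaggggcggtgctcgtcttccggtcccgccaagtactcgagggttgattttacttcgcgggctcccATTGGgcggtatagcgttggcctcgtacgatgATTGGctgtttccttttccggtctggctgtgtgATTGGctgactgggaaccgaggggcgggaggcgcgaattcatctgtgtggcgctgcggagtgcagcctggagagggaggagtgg
Bard1 promoter, chr1:71102923-71103222, strand minus: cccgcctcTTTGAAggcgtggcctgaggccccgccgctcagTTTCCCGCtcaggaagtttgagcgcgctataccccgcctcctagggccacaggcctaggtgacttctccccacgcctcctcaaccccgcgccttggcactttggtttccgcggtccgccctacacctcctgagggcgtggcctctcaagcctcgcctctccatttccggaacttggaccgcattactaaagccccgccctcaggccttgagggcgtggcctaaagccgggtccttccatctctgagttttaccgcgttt
Fancg promoter, chr4:43010252-43010551, strand minus: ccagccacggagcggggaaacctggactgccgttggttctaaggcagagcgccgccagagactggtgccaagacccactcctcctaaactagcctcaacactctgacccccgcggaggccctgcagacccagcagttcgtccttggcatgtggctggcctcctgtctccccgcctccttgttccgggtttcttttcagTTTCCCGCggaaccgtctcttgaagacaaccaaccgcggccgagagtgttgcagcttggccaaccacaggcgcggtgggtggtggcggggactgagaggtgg
Rad51c promoter, chr11:87404457-87404756, strand minus: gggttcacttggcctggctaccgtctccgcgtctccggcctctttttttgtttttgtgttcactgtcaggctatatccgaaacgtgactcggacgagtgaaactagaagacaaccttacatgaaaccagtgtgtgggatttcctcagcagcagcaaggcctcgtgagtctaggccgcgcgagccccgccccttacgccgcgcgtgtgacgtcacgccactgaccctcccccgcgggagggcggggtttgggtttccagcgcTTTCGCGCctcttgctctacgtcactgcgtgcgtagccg

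In the Chek1 promoter both E2F words added later overlap in the run that starts 40 bases into the transcript. Brip1 has CCAAT on the strand opposite to the gene at -99, -67 and -34, and none of the E2F words. Bard1 has TTTCCCGC at -209 and TTTGAA at -242. Fancg, whose log2 change of 0.12 was not called, has TTTCCCGC at -52. The start of Rad51c that is shown has TTTCGCGC at 12, and its other listed start has TTTCCCGC in reverse at -5. A match describes the letters only, and binding was not measured.

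Among the damage signalling genes, 2 of 5 rose, the effector kinase Chek1 and the histone variant H2ax, against 15.4% of all genes tested. The apical kinases Atm and Atr were not called. Chek1, which ATR phosphorylates to halt the cycle when forks stall, lay at 6.71, 7.70, 8.60 and 9.38 FPKM in control replicates 1 to 4. In Lck-cre replicates 5 to 8 it lay at 14.8, 10.9, 14.1 and 18.4 FPKM. Every Lck-cre sample was above every control, and the means differed 1.80-fold (log2 change 0.80, SE 0.15, adjusted p = 0.0107 by limma), the largest change among the members. The files give Chek1, a minus strand gene, the span 36619778 to 36638361 of chromosome 9, in a build they do not name.

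H2ax, the histone that is phosphorylated around breaks, was by far the most abundant member per length, with a median of 261 FPKM over the 8 samples. The next highest was Mus81 at 36.8 FPKM. H2ax lay at 187, 219, 242 and 223 FPKM in the controls and 280, 299, 319 and 320 FPKM in Lck-cre. The groups were well apart, and its call held under each alternative (log2 change 0.49, SE 0.07, adjusted p = 0.0075). Reads of its coding part could be shared with related histone genes, so its level is uncertain.

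Atr, the kinase of stalled forks, lay at 4.54, 5.20, 4.94 and 4.67 FPKM in the controls and 4.67, 4.23, 4.23 and 4.35 in Lck-cre. Most Lck-cre values were below the controls, but the groups overlapped (log2 change -0.13, 95% confidence interval -0.32 to 0.05, adjusted p = 0.254 by limma). Atm, the kinase of double-strand breaks, ranged from 3.38 to 5.22 FPKM in the controls and from 3.48 to 5.50 in Lck-cre (adjusted p = 0.676), and its estimate of 0.10 turned to -0.07 in males alone. Chek2, the effector kinase downstream of ATM, lay at 7.18 ± 0.656 and 8.76 ± 0.857 FPKM (SD, n = 4 each) and just missed the threshold (log2 change 0.27, adjusted p = 0.0567 by limma). It passed with no sex term (adjusted p = 0.0487) and without Lck-cre replicate 6 (0.034).

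End resection genes rose in 5 of 6 cases, against 15.4% of all genes tested. Exo1, the exonuclease of long-range resection, lay at 3.49, 4.25, 4.02 and 3.99 FPKM in the controls and 7.12, 5.70, 6.37 and 7.41 in Lck-cre. The lowest Lck-cre sample stood well above the highest control, a 1.69-fold difference of means (log2 change 0.69, SE 0.10, adjusted p = 0.0075 by limma). Dna2, the nuclease of the parallel long-range route, lay at 6.29, 9.41, 8.12 and 9.75 FPKM in the controls and 14.7, 11.3, 13.1 and 17.3 in Lck-cre. Its spread was wider, with control replicate 1 lowest (log2 change 0.72, SE 0.15, adjusted p = 0.0131). Rbbp8, which encodes the resection starter CtIP, had tight controls at 12.0, 12.9, 12.3 and 13.01 FPKM and lay at 17.6, 15.5, 16.9 and 19.3 in Lck-cre (log2 change 0.45, SE 0.08, adjusted p = 0.00927).

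The 3 subunits of the MRN complex, which binds the broken ends, did not give the same call. Rad50, the coiled-coil ATPase, rose from 8.55 ± 0.501 to 11.4 ± 1.39 FPKM, and Nbn, the subunit that recruits ATM, from 5.34 ± 0.774 to 8.02 ± 1.22 FPKM (SD, n = 4 each). Mre11a, the nuclease, lay at 9.71, 10.2, 8.95 and 9.72 FPKM in the controls and 10.8, 9.20, 9.90 and 11.2 in Lck-cre, with overlapping groups (log2 change 0.09, 95% confidence interval -0.10 to 0.27, adjusted p = 0.445). The ratio of Nbn to Mre11a was higher in each Lck-cre sample than in any control, with mean log2 ratios of -0.80 and -0.35. That of Rad50 to Mre11a was -0.16 and 0.13, again without overlap. Both pairs were chosen after the values were seen, so these ratios are no independent support for a difference between the subunits.

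**Figure D3:**
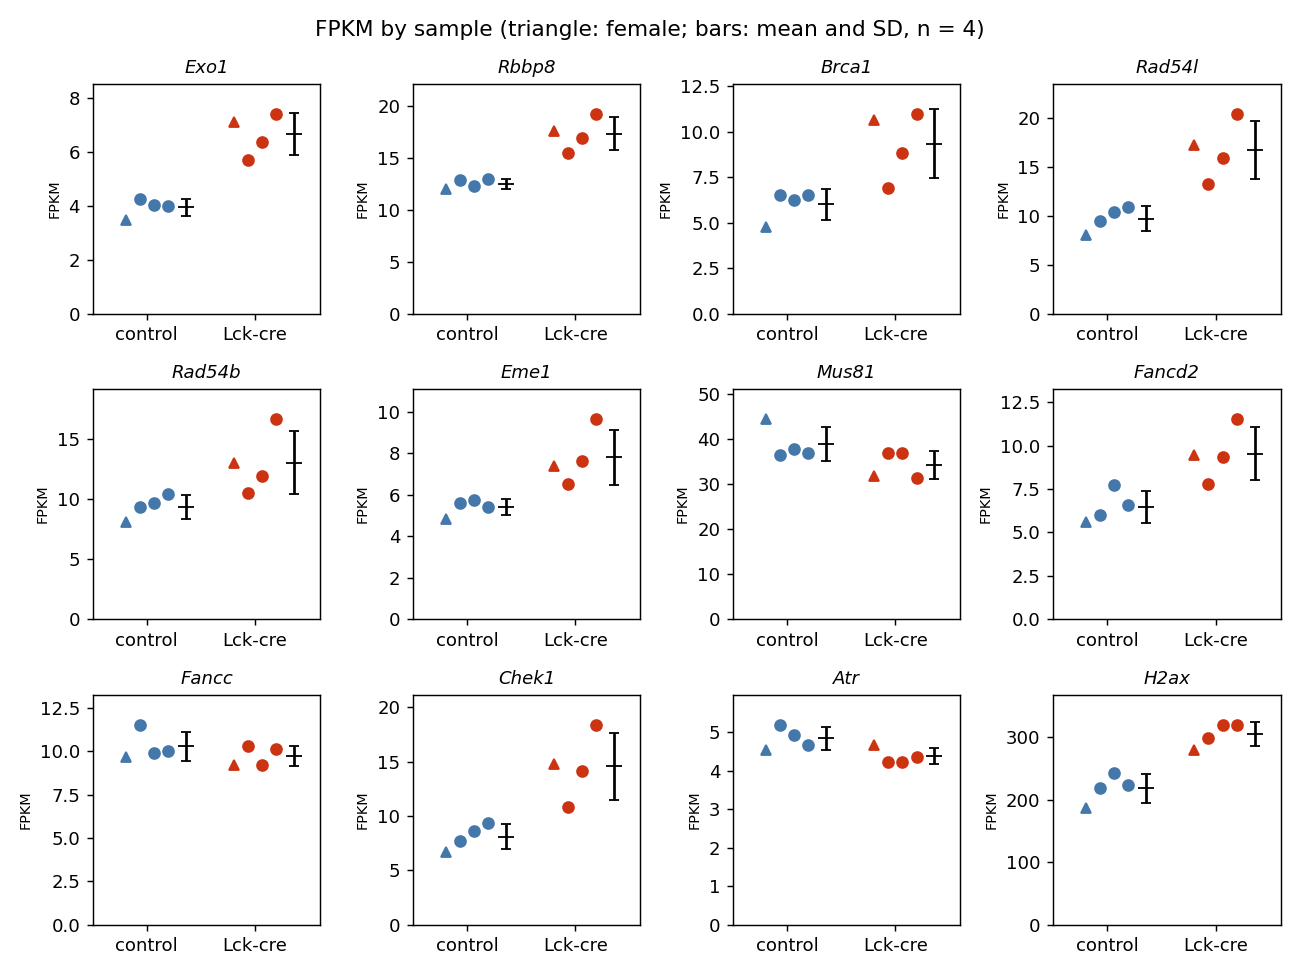
FPKM of 12 members in each sample, with controls in blue, Lck-cre in red, females as triangles and black bars for the mean and SD of 4 samples. Chek1, Exo1, Rad54l, Rbbp8, Eme1 and H2ax stand apart between groups, Rad54b and Fancd2 just clear the highest control, and Mus81, Fancc and Atr overlap.

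Of the genes of the BRCA1 and BRCA2 complexes, 4 of 5 rose, against 15.4% of all genes tested. Brca1, the ubiquitin ligase that favours recombination over end joining, lay at 4.77, 6.51, 6.23 and 6.55 FPKM in the controls and 10.7, 6.90, 8.84 and 10.99 in Lck-cre. Replicate 6 stood only slightly above the controls, and the groups overlapped with TPM values (log2 change 0.59, SE 0.16, adjusted p = 0.0265). Bard1, its obligate partner, rose from 5.47 ± 0.671 to 7.80 ± 1.45 FPKM, a call that ended with TPM values (adjusted p = 0.064). Brip1, the helicase bound by BRCA1 and also known as FANCJ, rose 1.67-fold from 2.72 ± 0.301 to 4.55 ± 1.02 FPKM. Palb2, which links BRCA1 to BRCA2, rose from 3.18 ± 0.221 to 4.37 ± 0.395 FPKM (SD, n = 4 each). Brca2, which prepares the resected strand for invasion, was the least abundant member by its median of 2.56 FPKM. It lay at 1.87, 2.56, 2.56 and 2.46 FPKM in the controls and 3.88, 2.31, 2.99 and 4.10 in Lck-cre. Replicate 6 fell among the controls, and the gene was not called (log2 change 0.40, 95% confidence interval 0.01 to 0.78, adjusted p = 0.113), but it was without that replicate (adjusted p = 0.0211).

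Among the genes of strand invasion, 4 of 7 rose, against 15.4% of all genes tested. Rad54l, a DNA translocase that helps the invading strand find its template, lay at 8.001, 9.51, 10.3 and 10.9 FPKM in the controls and 17.2, 13.3, 16.0 and 20.5 in Lck-cre. This 1.72-fold rise was the second largest log2 change among the members (0.75, SE 0.13, adjusted p = 0.00942). Its relative Rad54b rose less, from 9.36 ± 0.995 to 13.02 ± 2.63 FPKM, with replicate 6 at 10.5 beside a highest control of 10.4, and its call ended with TPM values (adjusted p = 0.0712) and median-of-ratios scaling (0.0513). Rad51ap1, which stimulates strand invasion, rose from 20.5 ± 2.10 to 30.7 ± 5.84 FPKM (log2 change 0.56, SE 0.11).

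The other genes of this group divided. Xrcc2 rose from 2.68 ± 0.305 to 3.63 ± 0.512 FPKM, a call that ended with TPM values (adjusted p = 0.0556). Rad51d, whose product binds XRCC2, lay at 11.2 ± 0.793 and 12.7 ± 0.967 FPKM and was not called (adjusted p = 0.116). Rad51c and Xrcc3, whose products pair with each other, were not called either. Rad51c lay at 3.25, 2.24, 3.52 and 2.26 FPKM in the controls and 3.52, 3.11, 2.95 and 3.78 in Lck-cre, so its controls spread widely. Xrcc3 lay at 13.4 ± 0.967 and 13.41 ± 1.148 FPKM (SD, n = 4 each), with a log2 change of 0.00 (95% confidence interval -0.18 to 0.18) whose sign turned with the scaling.

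Of the genes that process joined molecules, 2 of 5 rose, against 15.4% of all genes tested. Blm, the helicase that dissolves double junctions and also aids resection, rose from 9.95 ± 0.973 to 14.1 ± 2.10 FPKM. Its partners in the dissolvasome were not called: Rmi1 lay at 13.8 ± 1.23 and 12.9 ± 0.718 FPKM and Rmi2 at 10.6 ± 1.21 and 11.6 ± 0.426 FPKM (SD, n = 4 each).

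The subunits of the MUS81 nuclease, which cuts forks and junctions, lay on opposite sides of 0. Eme1, the partner subunit, lay at 4.84, 5.61, 5.74 and 5.43 FPKM in the controls and 7.41, 6.52, 7.62 and 9.65 in Lck-cre (log2 change 0.48, SE 0.11, adjusted p = 0.0179). Mus81, the catalytic subunit, lay at 44.4, 36.4, 37.9 and 36.8 FPKM in the controls and 31.7, 36.8, 36.9 and 31.2 in Lck-cre. Its groups overlapped (log2 change -0.18, 95% confidence interval -0.38 to 0.02, adjusted p = 0.148), and with TPM values it was called lower (adjusted p = 0.0461). The mean log2 ratio of Eme1 to Mus81 was -2.74 ± 0.226 in the controls and -2.07 ± 0.325 in Lck-cre, with no overlap. This pair, too, was chosen after the values were seen.

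Fanconi anaemia genes counted in other groups, such as Brip1 (FANCJ), are left out here. Of the 8 members with Fanc symbols, 3 rose, against 15.4% of all genes tested. Fancd2 and Fanci, whose products form the clamp that is ubiquitinated on DNA, were both among these 3. Fancd2 lay at 5.60, 6.03, 7.73 and 6.59 FPKM in the controls and 9.46, 7.80, 9.35 and 11.5 in Lck-cre, so replicate 6 barely cleared control replicate 3 (log2 change 0.52, SE 0.13, adjusted p = 0.0208). Fanci rose by the least of the called members, 1.21-fold from 10.1 ± 0.317 to 12.2 ± 1.14 FPKM (adjusted p = 0.0487), and was not called with quantile normalization (0.0637), TPM values (0.12) or median-of-ratios scaling (0.067).

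Of the core complex that ubiquitinates this clamp, Fanca rose from 10.4 ± 1.08 to 14.1 ± 2.23 FPKM, a call that ended with TPM values (adjusted p = 0.0516). The ligase Fancl (3.71 ± 0.625 and 4.20 ± 0.484 FPKM), Fancb (2.43 ± 0.229 and 2.74 ± 0.208) and Fancg (19.6 ± 1.25 and 21.3 ± 1.20) were not called, at log2 changes of 0.16, 0.15 and 0.12. Fancc lay at 9.68, 11.5, 9.90 and 9.999 FPKM in the controls and 9.19, 10.3, 9.21 and 10.1 in Lck-cre, with a log2 change of -0.08 (95% confidence interval -0.25 to 0.09). Fancm, the translocase that brings the complex to DNA, lay at 4.36 ± 0.567 and 5.46 ± 0.860 FPKM and was not called (adjusted p = 0.124, SD, n = 4 each). With TPM values the groups overlapped in each of the 8 genes.

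Polq, the polymerase of theta end joining, which seals resected ends without such a template, lay at 2.62, 3.53, 3.18 and 3.65 FPKM in the controls and 5.21, 3.43, 4.17 and 5.70 in Lck-cre. Replicate 6 lay within the controls and the other Lck-cre samples above them. The gene was not called (log2 change 0.44, adjusted p = 0.0685 by limma) but passed without that replicate (adjusted p = 0.0158).

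Because a call in 1 gene and none in its partner does not show that they differ, ratios within each sample were compared for 16 pairs of genes whose products bind each other, are close relatives or act in the same step. In 6 pairs every Lck-cre ratio was above every control ratio: Chek1 to Atr, Eme1 to Mus81, Nbn to Mre11a, Rad54l to Rad54b, Rad50 to Mre11a and Fancd2 to Fanci. The mean log2 ratios differed by 0.93, 0.66, 0.46, 0.31, 0.30 and 0.26. Each had p = 0.0286 in an exact two-sided permutation test, the smallest that 4 against 4 samples allow. The adjusted p was 0.0762 over the 16 pairs, so none passed, and at this floor passing would need most pairs to reach it. The pairs were chosen after the values were seen, and the ratios of Nbn and Rad50 share Mre11a. These p-values are therefore no independent support for a difference between partners. For Fancd2 to Fanci the gap was very small, with log2 ratios of at most -0.4081 in the controls and at least -0.4069 in Lck-cre. Blm to Rmi1 differed by 0.56 with overlapping groups (exact permutation p = 0.0571). The ratios of Brca2 to Palb2, Exo1 to Dna2 and Brip1 to Brca1 differed by -0.01, -0.03 and 0.04, within the spread of the samples.

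**Figure D4:**
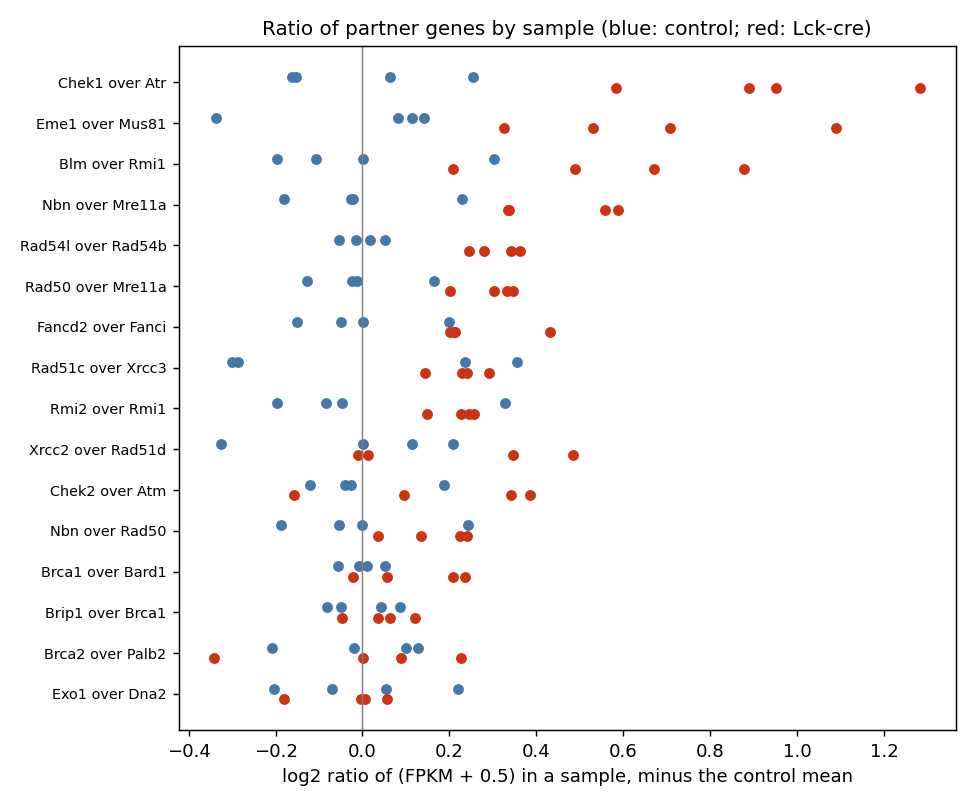
Log2 ratio of 16 pairs of genes in each control (blue) and Lck-cre (red) sample, shifted so that the control mean of each pair is 0. The pairs at the top, led by Chek1 over Atr, are higher in Lck-cre with no overlap for 6 of them, while pairs at the bottom such as Exo1 over Dna2 overlap fully.

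Beyond the 37, a list of 70 other genes of recombination, cross-link repair and fork protection had 21 called higher and 0 lower by limma, with a median log2 change of 0.17. Of all genes tested, 15.4% were called higher and 10.4% lower. At an unadjusted p under 0.05, 32 were higher and 2 lower, against 23.4% and 18% of all genes tested. Without control replicate 1, control replicate 2 or Lck-cre replicate 5 the calls were 7, 12 and 7. In these fits 3.48%, 6.82% and 3.33% of all genes tested were called higher. The largest log2 changes were those of Clspn, the adaptor through which ATR activates CHEK1 (20.7 ± 2.04 and 35.7 ± 6.47 FPKM), and Mcm8, a helicase of recombination (2.77 ± 0.364 and 4.90 ± 0.777). Timeless, a fork protection factor, rose from 21.9 ± 2.94 to 36.1 ± 5.92 FPKM, and Hrob, which loads the MCM8 helicase, from 5.65 ± 0.651 to 9.46 ± 1.58 FPKM (SD, n = 4 each). Among 13 genes of end joining and receptor gene rearrangement, of which 12 were tested, 0 were called higher and 3 lower (Polm, Rag1 and Rag2, named after their values were seen), with a median of -0.11. At an unadjusted p under 0.05, 1 of the 12 tested end joining genes was higher and 5 were lower, against 23.4% and 18% of all genes tested. Rag1 and Rag2 were also counted above in the list of double positive cell markers. Lig4, the ligase of end joining, lay at 22.9 ± 0.393 and 21.5 ± 0.892 FPKM (adjusted p = 0.28).

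Strand-specific counting is not stated in the sources used here, and 13 of the 37 members overlap a gene on the opposite strand with a mean of at least 1 FPKM. Among called members these were Rad54l with Lrrc41, Rad54b with Gm11832, Blm with Ndufab1-ps, Fanca with Zfp276, Fanci with Polg, and Eme1 with Lrrc59 and Mrpl27. Reads in the shared stretches cannot be assigned with certainty. Mean FPKM in control and Lck-cre was 17.1 and 16.9 for Lrrc41, 25.6 and 21.8 for Zfp276, and 55.6 and 43.9 for Polg, so these neighbours did not go up with the member. It was 1.76 and 2.69 for Gm11832, 1.35 and 1.94 for Ndufab1-ps, 39.0 and 50.9 for Lrrc59, and 20.5 and 30.3 for Mrpl27, higher in Lck-cre as the members were. Uncalled members had such neighbours too: Xrcc3 with Klc1 (39.4 and 32.8), Rmi1 with Hnrnpk (313 and 316) and Mre11a with Ankrd49 (5.29 and 6.46). The others were Fancc with Aopep (15.2 and 17.9), Fancl with Vrk2 (6.03 and 7.35), Atr with Gm16794 (4.33 and 2.95) and Mus81 with Efemp2 (2.15 and 2.585). What the overlaps did to the calls or to the ratios of partner genes was not tested.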

How the data were processed

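Total RNA of sorted thymocytes was sequenced in 4 control and 4 Lck-cre samples. Per the submitters' processing notes the authors used HISAT and Bowtie2, and the sources used here give no version, genome build, annotation or quantifier. Per the file headers, the authors deposited FPKM, TPM and mean coverage per base for each gene. TPM sums to 1000000 in each sample, and coverage is not scaled by depth. Entries that share a gene ID were summed.

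The test was limma 3.58.1 (R 4.3.3) with a trend, on log2(FPKM + 0.5), for genes that reached 1 FPKM in 4 or more of the 8 samples. The model held genotype and sex. P-values were two-sided and Benjamini-Hochberg adjusted over all tested genes. All 37 members passed the filter. Partner ratios, chosen after the values were seen, used an exact permutation test over 70 assignments. Summaries used Python 3.11.15 and pandas 2.3.3. Alternatives changed scaling, pseudocount, filter, sex term, threshold or samples.

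The members, gene lists and tests were chosen with earlier results of these data known. Named genes were the members, Sting1, Lig4 and, of the 70 further genes, the 4 largest called increases and up to 4 called decreases plus Pcna and Mki67. Other genes named (markers, end joining genes and opposite-strand neighbours) were picked after their values were seen. One further gene is not reported here. A planned search of the proteins was not run.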

Additional observations from a re-analysis of the deposited data

Results flagged for a closer look

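Of 74 groups of 4 values (37 members in 2 groups), 3 had a sample whose gap to its neighbour took up more of the group's range than Dixon's critical value for 4 samples allows. Chance alone gives about 1 in 20. Brca2 in control replicate 1 lay at 1.87 FPKM, with the other controls at 2.46 to 2.56. Xrcc3 in the same sample lay at 11.9 FPKM, with the others at 13.8 to 14.0. Fancg in Lck-cre replicate 8 lay at 23.1 FPKM, with the others at 20.4 to 20.8. None of these 3 genes was called.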

How the results depend on the processing

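The 20 called members had a positive log2 change in each of 360 combinations of gene and alternative, but the number called moved. With no filter, in males only and at an adjusted p under 0.01 it was 4 each time, with 9, 7 and 7 of the 70 further genes and, in both directions, 1056, 615 and 512 genes in all (2.41%, 3.37% and 3.11% of those tested were called higher). Leaving out 1 sample gave 4 to 23 members higher, 7 to 28 further genes called in either direction (27 higher and 1 lower without Lck-cre replicate 6) and 636 to 3865 genes in all. TPM values called 1 member, Mus81, lower, and without 1 sample 0 were lower. Signs turned for 2 uncalled members. Xrcc3 had a log2 change of -0.0272 with quantile normalization, -0.0717 with TPM, -0.0201 with median-of-ratios scaling, -0.0527 in males only and -0.0527 to 0.0453 with 1 sample left out. Atm had -0.0715 in males only and -0.0715 to 0.221 with 1 sample left out. The cause was not tested, except that males only leaves 3 samples against 3, as does leaving out either female under the sex term. Of the 17 uncalled members, 13 were called under no alternative. No paired analysis was possible because the groups share no replicate numbers. Without read counts the precision of low values, such as Brca2 and Fancb, is unknown.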
